A study of Mus musculus with 12 samples.

Results

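The comparison described here sets the spleens of mice given alginate oligosaccharides (AOS) alone against the spleens of untreated mice. It holds 6 of the 12 RNA-seq libraries of the study, 3 labelled AOS at 10 mg/kg for 5 weeks and 3 labelled control without any treatment, and all 15079 genes tested of the 19376 in the table. The other 6 libraries, 3 of busulfan (40 mg/kg, given once) followed by the same AOS course and 3 of busulfan alone, entered the estimate of the spread, and the effect of AOS after busulfan was set beside that of AOS alone, with a test of their difference. The labels write the strain as IRC and the tissue as cells, while the protocol names spleen. They give no age or sex, and nothing in them ties a library to an animal of its own, so the p-values here reflect how far these libraries scatter, for technical or other reasons.

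Alginate is the structural polysaccharide of brown seaweeds, and AOS are the short chains of mannuronate and guluronate left when it is cut. The spleen filters blood. Its red pulp holds macrophages that take up old red cells and recycle their iron, and in the mouse it also makes red cells, while the white pulp holds B cell follicles, in which germinal centres form, and T cell zones. In bulk tissue, fewer cells of a type and less RNA per cell cannot be told apart.

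The tissue carried the markers of spleen in all 6 libraries. Cd79a, a part of the B cell receptor, lay between 485 and 719.6 FPKM, the erythroid band 3 gene Slc4a1 between 311 and 649 FPKM, Spic, which red pulp macrophages need, between 34.2 and 51.6 FPKM, and Tlx1, which the spleen needs to form, between 9.27 and 13.6 FPKM. Total counts of the 6 libraries ran from 15051300 to 16138691. Between libraries of 1 group the counts differed by more than sampling noise, with a chi-square per degree of freedom of 18.3 to 72.7, so none was a copy of another. The pairs of AOS 2 with AOS 1 and with AOS 3 had the highest values, 72.7 and 71.7, and AOS 2 held 4.89% of its counts in genes of pancreatic acinar cells.

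AOS alone left no gene called. With edgeR's quasi-likelihood test 0 of 15079 genes (0%) passed a Benjamini-Hochberg adjusted p of 0.05, and the smallest adjusted p was 0.449. An unadjusted p under 0.05 was reached by 894 genes (5.93%), 456 higher with AOS (3.02%) and 438 lower (2.9%). The 3 AOS libraries lay all above the 3 controls for 849 genes (5.63%) and all below them for 783 (5.19%). On another scale the split of higher against lower genes at an unadjusted p under 0.05 shifted, to 365 against 548 with upper-quartile scaling and to 218 against 842 in limma on log2(FPKM + 0.1). DESeq2 called 70 genes on the same counts, of which 36 stand on a list of another tissue such as pancreas or fat, and limma-voom called 0. What follows therefore gives levels and their spread in CPM, the read count scaled to sequencing depth with TMM factors, and a fold change is log2 of AOS over control with its standard error (SE).

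Pdk4 and Ddit4, which belong to the response to glucocorticoids and fasting, were among the 12 genes of smallest p on the higher side. So were Tff2 and the amylase genes Amy2a2, Amy2a3 and Amy2a4, given below with the pancreas. Glucocorticoid hormones bind a receptor that moves to the nucleus and switches on genes that limit lymphocyte growth and shift cells from burning glucose to burning fat. Of 16 genes tested on this list, 5 had higher values with AOS at an unadjusted p under 0.05, against 3.02% of all genes, and none had lower ones. For 6 of the 16 the 3 AOS libraries lay above the 3 controls, against 5.63% of all genes. The list was chosen with earlier results of these data known, so these counts are not independent support.

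Pdk4, the kinase that shuts off pyruvate dehydrogenase and so spares glucose, had 13.6, 8.40 and 13.8 CPM in AOS 1, 2 and 3, against 6.70, 5.48 and 5.75 CPM in controls 1, 2 and 3. The groups did not overlap, and AOS 2 was the lowest of its group. The log2 fold change was 1.00 ± 0.21 (SE), which did not pass with edgeR (adjusted p = 0.449) and did with DESeq2 (adjusted p = 0.00496). Ddit4, an inhibitor of the growth kinase mTORC1, had 57.5, 47.5 and 57.5 CPM with AOS, against 38.5, 33.9 and 32.9 CPM in controls, also without overlap (log2 fold change 0.63 ± 0.14, edgeR adjusted p = 0.449). DESeq2 called Ddit4 too (adjusted p = 0.0100). Tsc22d3, which encodes the glucocorticoid-induced leucine zipper, had 160.2, 159 and 163 CPM with AOS, against 118, 96.4 and 112 CPM in controls (log2 fold change 0.56 ± 0.15, edgeR adjusted p = 0.562). The AOS libraries were nearly level for this gene, and the controls spread more widely. None of the 20 alternative settings called Tsc22d3.

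Errfi1, an inhibitor of the EGF receptor, had 30.2, 23 and 33.9 CPM with AOS, against 19.6, 21.5 and 14.5 CPM in controls, with AOS 2 the closest to the controls. Per1, a clock repressor that glucocorticoids also induce, had 37.7, 38 and 44.1 CPM with AOS, against 28.5, 35.3 and 29.9 CPM in controls. Fkbp5, a chaperone that dampens the glucocorticoid receptor, had 40.1, 39 and 40.2 CPM with AOS, against 30.3, 37 and 35.3 CPM in controls. These 3 genes, singled out after their values were seen, did not overlap between the groups and did not pass (edgeR adjusted p = 0.690, 0.807 and 0.822). The other 10 genes of the list overlapped, among them Sgk1, Zbtb16, Klf9 and Txnip, and the list's median log2 fold change was 0.08. Of the 16 genes, 11 were positive, against 48.8% of all genes. The metallothionein gene Mt1 had 28.9, 58.5 and 24.6 CPM with AOS, against 29, 22.5 and 27.4 CPM in controls, with the high value in the pancreas-rich library AOS 2. Without control 1 and AOS 2, the libraries with most fat and pancreas transcripts, 4 genes of the list had an unadjusted p under 0.05, and the log2 fold change of Pdk4 was 1.29.

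When AOS was given after busulfan, 5 of the 16 genes of this list had the opposite sign and were past the threshold. Fkbp5 was not called, and 5 of the 16 were positive after busulfan. At an unadjusted p under 0.05, 1 was higher and 6 were lower, against 10.7% and 10.5% of all genes. In that pair, which shares no library with AOS against control, edgeR called 456 genes (3.02%), and Pdk4, Ddit4, Tsc22d3, Errfi1 and Per1 were among them, all lower. Pdk4 fell to 5.81, 7.34 and 8.69 CPM with busulfan and AOS, against 17.9, 16.9 and 20.8 CPM with busulfan (log2 fold change -1.35 ± 0.20, edgeR adjusted p = 0.0115). Tsc22d3 fell to 62.3, 49.9 and 77.2 CPM with busulfan and AOS, against 195, 175 and 147 CPM with busulfan (log2 fold change -1.45 ± 0.15, edgeR adjusted p = 0.00525). By group means across the 4 groups these 5 called genes were highest with busulfan alone and next highest with AOS alone. Control and busulfan with AOS lay lowest.

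The difference between the 2 AOS effects was tested as an interaction in the same edgeR fit, and it was past the threshold for 73 of 15079 genes (0.484%), all 5 of these among them. The interaction takes in the values of AOS against control given above. For Ddit4 it was -2.03 ± 0.20 on the log2 scale (edgeR adjusted p = 0.00908) and for Tsc22d3 -2.01 ± 0.21 (edgeR adjusted p = 0.00908). It was -2.42 ± 0.29 for Errfi1, -2.34 ± 0.29 for Pdk4 and -1.37 ± 0.19 for Per1 (edgeR adjusted p = 0.0114, 0.0116 and 0.0156). Over 13 refits that left out libraries, Ddit4, Tsc22d3 and Errfi1 stayed past the threshold in 13, Pdk4 in 12 and Per1 in 9. The highest adjusted p of Pdk4 was 0.0524, without the second library of busulfan with AOS, and that of Per1 was 0.0901, without control 1 and AOS 2.

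**Figure D1:**
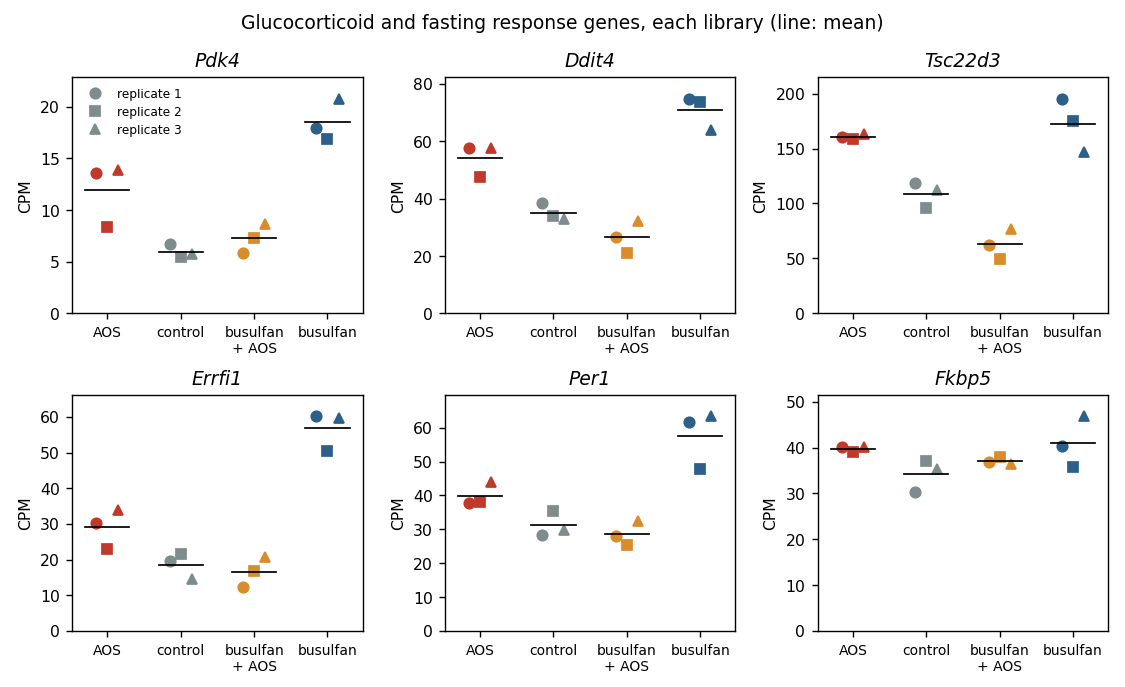
CPM of 6 glucocorticoid and fasting response genes in each library (points, shaped by replicate number) with the group mean (line), for AOS, control, busulfan with AOS and busulfan. In each panel the AOS libraries lie above the controls, and in each but that of Fkbp5 the libraries of busulfan with AOS lie below those of busulfan; Tsc22d3 lies between 159 and 163 CPM with AOS and between 96.4 and 118 CPM in controls.

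The circadian clock is a loop in which Arntl (Bmal1) and Clock bind E-box sequences (CACGTG) and switch on Per, Cry and Bhlhe genes, whose proteins repress them in turn. Of 18 clock genes tested, 3 had higher values with AOS at an unadjusted p under 0.05 (Arntl, Per1 and Cry1) and 1 had lower ones (Bhlhe41), against 3.02% and 2.9% of all genes. Without control 3 the count of higher genes was 0 and without AOS 3 it was 1, while 1 gene was lower in each refit without a library. The groups did not overlap for any of these 4. The list median was -0.01, with 9 genes positive and 9 negative, and list levels overlapped. Of the 15 clock genes with a promoter in RefSeq (250 bases before the start to 50 after it, GRCm38.p6), 5 held the 6 letters CACGTG in at least 1 listed promoter, which read the same on both strands, against 1253 of 11242 genes tested (11.1%). The E-boxes of the 3 genes among the 4 that hold one are printed with 15 bases on each side, the E-box in capitals.
Per1 (chr11:69098768-69098803, plus strand): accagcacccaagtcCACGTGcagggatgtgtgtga
Cry1 (chr10:85185094-85185129, minus strand): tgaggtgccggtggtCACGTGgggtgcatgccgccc
Bhlhe41 (chr6:145865553-145865588, minus strand): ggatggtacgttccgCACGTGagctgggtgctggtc
A match is a description of these letters and not of binding.

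Bhlhe41, which encodes the repressor DEC2, had 18, 19.1 and 16.4 CPM with AOS, against 26.1, 22.7 and 24.2 CPM in controls (log2 fold change -0.45 ± 0.09, edgeR adjusted p = 0.449). Bhlhe41 was called by DESeq2 in this pair (adjusted p = 0.0152). It too had the opposite sign after busulfan, where it rose to 30.0, 28.2 and 27.7 CPM with busulfan and AOS, against 18.2, 21.5 and 20.4 CPM with busulfan (log2 fold change 0.51 ± 0.09, edgeR adjusted p = 0.0204). The interaction was 0.97 ± 0.13 (edgeR adjusted p = 0.0149). Arntl had 25.9, 24 and 28.4 CPM with AOS, against 23.4, 22.1 and 18.9 CPM in controls. Cry1 had 24.8, 26.6 and 22.3 CPM with AOS, against 20.8, 21.3 and 18.1 CPM in controls. The output gene Dbp had 7.87, 6.35 and 5.23 CPM with AOS, against 8.42, 9.43 and 7.22 CPM in controls, and overlapped, as did the repressor Nr1d1. After busulfan the log2 fold changes of Arntl and Cry1 were -0.26 ± 0.10 and -0.26 ± 0.12, of the opposite sign, and their interactions did not pass (edgeR adjusted p = 0.0931 and 0.136). The hour at which tissue was taken is not given in the sources used here.

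Most genes of B and T lymphocytes had slightly higher values with AOS, within the spread of the libraries and resting in part on control 3. Germinal centres are the sites where B cells divide, mutate their antibody genes and are selected. Of 13 germinal centre genes tested, 5 had an unadjusted p under 0.05, all higher with AOS, against 3.02% of all genes. The 3 AOS libraries lay above the controls for the same 5, against 5.63% of all genes, and the list median was 0.39. Bcl6, the factor that sets up the germinal centre programme, had 58.8, 58.6 and 58.4 CPM with AOS, against 51.1, 48.3 and 43.3 CPM in controls. Basp1 had 37.7, 34.5 and 31.5 CPM with AOS, against 23.4, 19.2 and 25.2 CPM in controls (log2 fold change 0.61 ± 0.16, edgeR adjusted p = 0.562). Mef2b, a partner of Bcl6, had 9.60, 9.93 and 5.41 CPM with AOS, against 3.89, 4.84 and 4.79 CPM in controls. AOS 3 was the lowest AOS library for each of these 3 genes, and for Mef2b it lay close to the controls. The list level, the median over its genes of log2(CPM + 0.5) minus the gene's mean over the 6 libraries, was 0.39, 0.31 and -0.09 with AOS, against -0.17, -0.29 and -0.19 in controls. Between 1 and 7 of the genes had a positive difference at an unadjusted p under 0.05 when libraries were left out, with 1 left without AOS 2 and 7 without AOS 3.

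General B cell genes showed less. Of 18 tested, 16 had positive values, against 48.8% of all genes, and the median was 0.11. Without control 3, 10 of 18 were positive and the median was 0.005. Blnk, an adaptor of the B cell receptor, was the one with an unadjusted p under 0.05, at 163, 149 and 156 CPM with AOS against 134, 131 and 105 CPM in controls. Of 14 plasma cell genes, 3 had an unadjusted p under 0.05 (Slamf7, Fkbp11 and Creld2), all with higher values, against 3.02% of all genes, and the groups did not overlap for Slamf7. Without control 2 the count was 0 higher and 2 lower, and it was 1 higher without control 1, AOS 1 or AOS 3.

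All 18 T cell genes had a positive log2 fold change, against 48.8% of all genes, with a median of 0.20. Only 1 had an unadjusted p under 0.05, against 3.02% of all genes on the higher side. It was Il7r, the receptor that keeps resting T cells alive, at 78.6, 82.1 and 62.9 CPM with AOS against 52.4, 62.5 and 42 CPM in controls (edgeR adjusted p = 0.763). The list level was 0.31, 0.10 and -0.09 with AOS, against 0.00, 0.17 and -0.52 in controls, so the low value was that of control 3. Without control 3 the median was 0.04 and 11 of 18 genes were positive. All 13 genes of natural killer and cytotoxic cells were also positive, with a median of 0.24, and Ccl5, a chemokine of these cells, had 64.6, 58.4 and 73 CPM with AOS, against 45.2, 36.6 and 58.2 CPM in controls (edgeR adjusted p = 0.666). Without control 1 or without AOS 3, 9 of the 13 were positive. Of 12 genes of regulatory T cells and checkpoint receptors, 11 were positive, among them Foxp3 at 12.4, 9.53 and 10.5 CPM with AOS, against 9.44, 8.79 and 9.01 CPM in controls, and the list levels overlapped.

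**Figure D2:**
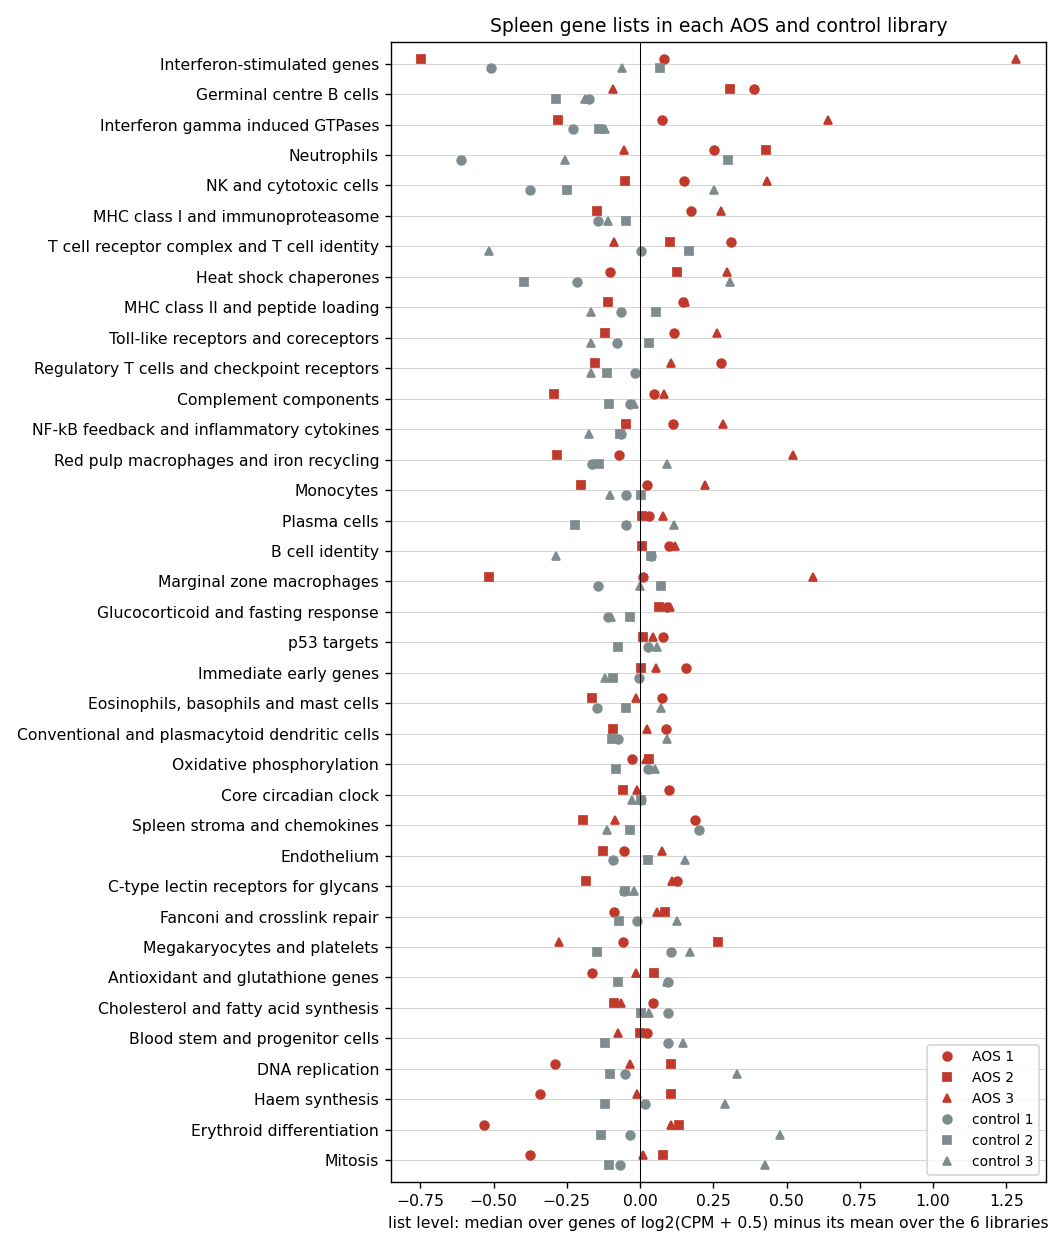
List level of 37 spleen gene lists, ordered by the list's median log2 fold change, in each AOS library (red, above) and control library (grey, below), with the replicate number as the point's shape. AOS and control libraries overlap for most lists; interferon-stimulated genes reach 1.28 in AOS 3 and -0.75 in AOS 2, and erythroid and mitosis genes are highest in control 3.

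Interferon-stimulated genes are switched on together when interferons from virus-sensing or bacteria-sensing cells bind their receptors, through factors that bind repeats of the letters GAAA. They varied more among the 3 AOS libraries than any other spleen list shown in the plot of list levels. Ifit3, which blocks foreign RNA, had 37.1, 13.6 and 108 CPM in AOS 1, 2 and 3, against 17.3, 31.3 and 26.6 CPM in controls. Isg15, a ubiquitin-like tag, had 56.4, 21.2 and 194 CPM with AOS, against 36.7, 62.5 and 64.2 CPM in controls. Irf7, the factor that amplifies interferon production, had 74.9, 29 and 211 CPM with AOS, against 37.5, 76.6 and 67.7 CPM in controls. AOS 3 was the highest of the 6 libraries and AOS 2 the lowest for each of these 3 genes.

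Over the 25 genes tested, 23 were positive, against 48.8% of all genes, with a median log2 fold change of 0.61. An unadjusted p under 0.05 was reached by 2, both higher (Ifit2 and Stat2), against 3.02% of all genes. The groups lay apart for 0. The list level was 0.08, -0.75 and 1.28 with AOS, against -0.51, 0.07 and -0.06 in controls. The median depended on 1 library: it was -0.11 without AOS 3, with 9 of 25 positive, and 1.04 without AOS 2, with 19 of 25 at an unadjusted p under 0.05. In busulfan with AOS against busulfan, all 25 were positive, against 50.7% of all genes, with a median of 0.62. There 6 had an unadjusted p under 0.05, all higher, against 10.7% of all genes, and edgeR called 0. The cause of the difference between the AOS libraries was not tested.

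The promoters of these genes are shown because the genes went up and down together from library to library. Of 17 interferon-stimulated genes with a promoter in RefSeq, 10 held GAAA, then any 2 bases, then GAAA, on either strand (58.8%), against 448 of 11242 genes tested (3.99%). Windows before the start of transcription are printed with 15 bases on each side of a match, the match in capitals, and TTTC repeats are matches on the opposite strand.
Ifit1 (chr19:34640770-34640809, plus strand): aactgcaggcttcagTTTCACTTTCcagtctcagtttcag
Ifit3 (chr19:34583358-34583397, plus strand): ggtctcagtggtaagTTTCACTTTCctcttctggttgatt
Isg15 (chr4:156200866-156200905, minus strand): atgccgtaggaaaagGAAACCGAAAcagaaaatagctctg
Rsad2 (chr12:26456548-26456587, minus strand): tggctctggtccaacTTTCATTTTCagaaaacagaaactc
The match of Ifit1 ends 95 bases before the start of the gene, and that of Isg15 shown here ends 63 bases before it and overlaps 2 further matches.

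The GTPases induced by interferon gamma, which attack the vacuoles of microbes inside cells, had a median of 0.34 over 16 genes. Of these, 5 had higher and 1 had lower values with AOS at an unadjusted p under 0.05, against 3.02% and 2.9% of all genes. The count of higher genes was 2 without AOS 3, 3 without control 1 and 11 without AOS 2. Gbp4 had 209.7, 148 and 241 CPM with AOS, against 130.0, 129 and 122 CPM in controls (log2 fold change 0.65 ± 0.19, edgeR adjusted p = 0.653). Gbp8 had 46.6, 41.7 and 57.5 CPM with AOS, against 35.5, 34 and 36.4 CPM in controls (log2 fold change 0.46 ± 0.12, edgeR adjusted p = 0.562). Both were without overlap, with AOS 2 nearest to the controls. Gbp9 ran the other way, with 122, 115 and 211 CPM with AOS, against 218, 246 and 239.8 CPM in controls. It was 1 of 2 negative members, and the lowest log2 fold change on the list was -4.44. Gbp4, Gbp8 and Gbp9 are neighbours on chromosome 5, and how reads of related genes were shared out is not given. Of the 11 genes with a promoter in RefSeq, 10 held that motif. Without AOS 3 the median of the list was 0.02. In busulfan with AOS against busulfan it was 0.43, with 14 of 16 positive, against 50.7% of all genes.

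MHC class I molecules show peptides cut by the proteasome to cytotoxic T cells. Of 17 genes tested, 6 had higher and 1 had lower values with AOS at an unadjusted p under 0.05, against 3.02% and 2.9% of all genes, and the median was 0.23. The count of higher genes was 2 without control 1, with 2 lower, 3 without AOS 1 or AOS 3, and 11 without AOS 2. H2-K1, a class I heavy chain, had 1162, 884 and 1206 CPM with AOS, against 766, 875 and 659.5 CPM in controls (log2 fold change 0.50 ± 0.15, edgeR adjusted p = 0.665). Psmb10, a catalytic subunit of the immunoproteasome, had 57.3, 59.8 and 66.3 CPM with AOS, against 50.1, 53.7 and 47.7 CPM in controls (log2 fold change 0.28 ± 0.08, edgeR adjusted p = 0.630). Neither overlapped, but AOS 2 and control 2 nearly met for H2-K1. The values of this family depend on how reads of near-identical genes were shared out, which is not given in the sources used here. Tapbp lay at or below 0.892 CPM and Psmb8 at or below 2.81 CPM in all 6 libraries, and H2-Q4, which had 1.15, 0.794 and 1.89 CPM with AOS, against 4.72, 2.04 and 22.4 CPM in controls, is uncertain for the same reason. MHC class II genes, 12 tested, had a median of 0.19 and 0 members at an unadjusted p under 0.05.

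**Figure D3:**
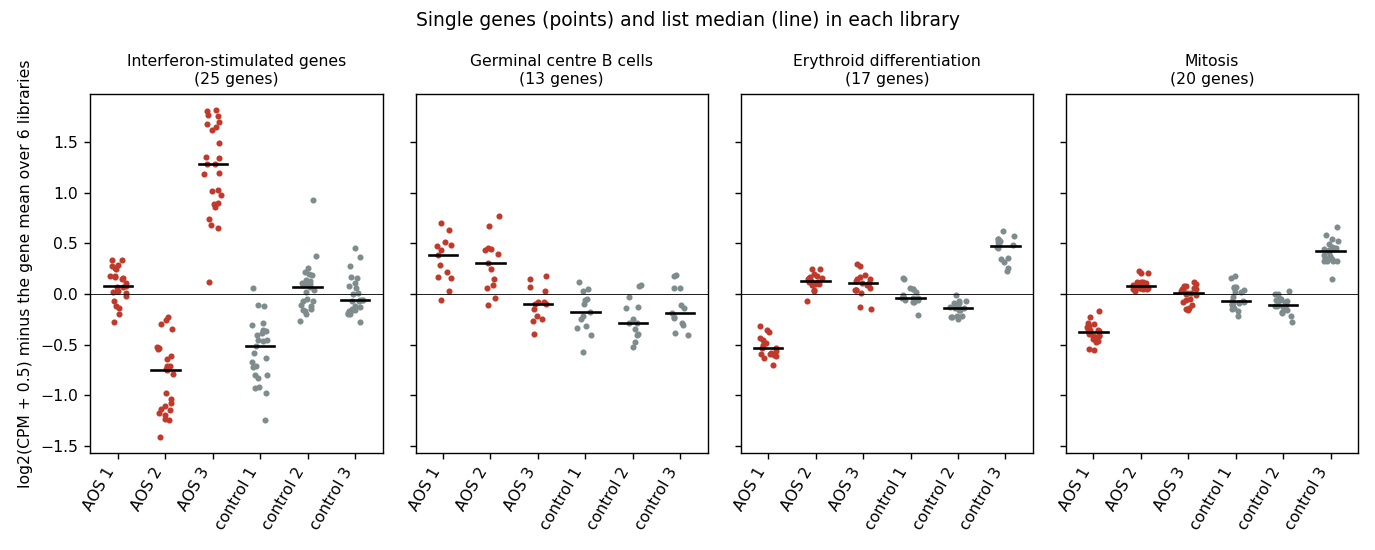
Each point is 1 gene of a list in 1 library, as log2(CPM + 0.5) minus the gene's mean over the 6 libraries, and the line is the list's median; AOS libraries are red and control libraries grey. Interferon-stimulated genes are spread between AOS 2 (-0.75) and AOS 3 (1.28), germinal centre genes are higher in AOS 1 and AOS 2, and erythroid and mitosis genes are low in AOS 1 and high in control 3.

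Besides the germinal centre and the glucocorticoid list, the list levels of the AOS libraries all lay above those of the controls for 2 of the 37 spleen lists, immediate early genes and genes of NF-kB feedback and inflammatory cytokines. Immediate early genes answer growth signals within minutes. Of 18 tested, 2 had an unadjusted p under 0.05, both higher, against 3.02% of all genes. Jund, a subunit of the AP-1 factor, had 85.6, 77.7 and 68.2 CPM with AOS, against 67.4, 63.2 and 52.5 CPM in controls. Egr2, a zinc finger factor of activated lymphocytes, had 9.60, 9.13 and 8.06 CPM with AOS, against 6.95, 6.37 and 6.26 CPM in controls. Neither overlapped, while Fos, Egr1 and Nr4a1 did, and the list median was 0.04. Of the 17 NF-kB and cytokine genes, 1 had higher values at an unadjusted p under 0.05, against 3.02% of all genes. This was Il12b, a subunit of interleukin 12, with 3.07, 2.12 and 2.96 CPM with AOS, against 1.85, 1.78 and 1.85 CPM in controls.

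The lists of Toll-like receptors with their coreceptors and of C-type lectin receptors showed little. Of 20 Toll-like receptors and coreceptors, 19 were positive, against 48.8% of all genes, with a median of 0.17. An unadjusted p under 0.05 was reached by 2, both higher, against 3.02% of all genes. Without AOS 3, 13 were positive, the median was 0.07 and 0 had such a p, and without AOS 2 the median was 0.29 and 6 had one. Unc93b1, which carries nucleic acid sensing receptors to the endosome, had 313, 269 and 331 CPM with AOS, against 268, 270.2 and 256 CPM in controls, with AOS 2 among the controls. Tlr4, the receptor for bacterial lipopolysaccharide, had 28.5, 30.1 and 40.2 CPM with AOS, against 30.9, 31.8 and 35.1 CPM in controls. Of 15 C-type lectin receptors, 0 had an unadjusted p under 0.05, and Clec7a, the receptor for beta-glucan known as dectin-1, had 16.9, 13.9 and 13.9 CPM with AOS, against 13.6, 12.2 and 13 CPM in controls.

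Neutrophil genes had a median of 0.33 over 18 tested, with 12 positive. The median was 0.13 without control 1, 0.16 without AOS 2, 0.57 without control 2, and -0.01 with 9 positive without control 1 and AOS 2 together. Ly6g, a surface marker of neutrophils, had 4.35, 5.03 and 2.90 CPM with AOS, against 1.15, 1.97 and 1.41 CPM in controls (log2 fold change 1.43 ± 0.57, edgeR adjusted p = 0.822), and it was the one member with an unadjusted p under 0.05. The list level of control 2, 0.30, lay between those of AOS 1 (0.25) and AOS 2 (0.43), so the groups overlapped. Red pulp macrophage genes had a median of 0.15 over 16 tested and monocyte genes 0.14 over 12, each with 0 members at an unadjusted p under 0.05. Without AOS 3 these medians were -0.11, with 14 of 16 genes negative, and -0.01. The lists of dendritic cells, complement, megakaryocytes, blood progenitors, stroma and endothelium had overlapping levels and 0 members at that p. On the complement list C2 had a log2 fold change of 9.37 without such a p in edgeR, and the groups overlapped. Over 18 alternative settings it ran from 1.35 to 23.3, and DESeq2 called C2 (adjusted p = 0.000225). Eosinophil, basophil and mast cell genes had 1 of 12 at that p (Ear1) and lipid synthesis genes 2 of 18 (Scd2 higher, Insig1 lower). Of all genes, 3.02% were higher and 2.9% lower at that p.

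Genes of red cell formation and of cell division had slightly lower values with AOS, with AOS 1 the lowest library and control 3 the highest. All 17 erythroid genes were negative with a median of -0.20, all 12 of haem synthesis with -0.17, all 20 of DNA replication with -0.14, and 19 of 20 mitosis genes with -0.21. Of all genes, 48.8% were positive. Of these 69 genes, 0 had an unadjusted p under 0.05 and 0 lay apart, against 5.93% and 10.8% of all genes in either direction. Mki67, which marks dividing cells, had 969, 1466 and 1487 CPM with AOS, against 1279.5, 1283 and 2224 CPM in controls. Gata1, the master factor of red cells, had 91.7, 122 and 105 CPM with AOS, against 127, 104 and 145 CPM in controls. AOS 1 was the lowest of the 6 libraries for both genes and control 3 the highest. Without control 3 the median of the erythroid list was 0.02, with 10 of 17 positive, that of DNA replication 0.03, that of haem synthesis -0.02 and that of mitosis -0.01. Without AOS 1 the erythroid median was -0.01.

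Slx4 had the smallest p of all genes with a symbol that meet the naming rule. It encodes the scaffold that holds the nucleases which cut DNA at crosslinks and at branched junctions, and lies on chromosome 16 (chr16:3979105-4003829, GRCm38.p6). It had 43.3, 43.6 and 42.7 CPM with AOS, against 35, 33.2 and 35.4 CPM in controls, without overlap and with little spread in either group. The log2 fold change was 0.32 ± 0.06 (SE), which did not pass with edgeR (adjusted p = 0.449) and did with DESeq2 (adjusted p = 0.0152). Over 20 alternative settings it stayed between 0.29 and 0.34. After busulfan, Slx4 had 36.7, 36.1 and 36.3 CPM with AOS, against 33.4, 37.3 and 33.2 CPM without it, and those groups overlapped.

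The rest of the crosslink repair list did not follow Slx4. Of 22 genes tested, 1 further gene had an unadjusted p under 0.05, Fancc of the Fanconi core complex, with 6.72, 7.94 and 7.49 CPM with AOS, against 9.12, 8.60 and 9.65 CPM in controls, and 8 of 22 were positive. Of 21 p53 targets, 1 had an unadjusted p under 0.05, the death gene Bbc3 (Puma), with 6.40, 4.96 and 6.23 CPM with AOS, against 3.96, 4.78 and 4.09 CPM in controls. Of 21 antioxidant and glutathione genes, 1 had an unadjusted p under 0.05. This was Sod1, the copper and zinc superoxide dismutase, with 166, 183 and 194 CPM with AOS, against 201, 206 and 227 CPM in controls. Of 20 genes of oxidative phosphorylation, 0 had an unadjusted p under 0.05, and 1 lay apart. Of all genes, 5.93% had such a p and 10.8% lay apart, counting either direction.

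Several other genes with the smallest p showed shifts of a fraction of their level with tight groups. On the higher side, Pxk, a kinase-like protein with a lipid-binding PX domain, had 182, 188 and 186 CPM with AOS, against 138, 146 and 139.8 CPM in controls (log2 fold change 0.39 ± 0.08, edgeR adjusted p = 0.449). Rnf41, a ubiquitin ligase also called Nrdp1, had 45.7, 40.7 and 44.3 CPM with AOS, against 34.5, 34.6 and 34.9 CPM in controls (log2 fold change 0.33 ± 0.07). Apobec1, the enzyme that edits C to U in apolipoprotein B messenger RNA, had 67.1, 64.1 and 68.6 CPM with AOS, against 55.1, 51.3 and 50.4 CPM in controls (log2 fold change 0.35 ± 0.08). None of these overlapped. Ttll4, which adds glutamate to tubulin, had 62.7, 68.7 and 62.7 CPM with AOS, against 55, 53.4 and 54.8 CPM in controls (log2 fold change 0.25 ± 0.06).

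On the lower side, Hmgn5, which binds nucleosomes and loosens chromatin, had 25.2, 29.4 and 26.4 CPM with AOS, against 35.3, 35.2 and 35.9 CPM in controls (log2 fold change -0.40 ± 0.08, edgeR adjusted p = 0.449). Osbpl1a, a lipid-binding protein, had 12.5, 16.3 and 14 CPM with AOS, against 20.8, 19.4 and 23.3 CPM in controls (log2 fold change -0.57 ± 0.12). Adamts5, a protease that cuts the matrix protein aggrecan, had 14.4, 12.2 and 11.1 CPM with AOS, against 20.2, 17 and 20.5 CPM in controls (log2 fold change -0.61 ± 0.15). In each the groups lay apart. Zc3h6, which encodes a zinc finger protein, had 11.3, 9.46 and 9.69 CPM with AOS, against 16.5, 19.2 and 14.4 CPM in controls (log2 fold change -0.72 ± 0.17). Fam204a had 21.8, 19.5 and 17.4 CPM with AOS, against 26, 27.1 and 27 CPM in controls (log2 fold change -0.45 ± 0.09). Zranb1, a deubiquitinase also called Trabid, had 50.4, 54.3 and 48.2 CPM with AOS, against 61.4, 58.2 and 63.4 CPM in controls (log2 fold change -0.26 ± 0.06). DESeq2 called Pxk, Rnf41, Hmgn5, Osbpl1a, Adamts5, Zc3h6 and Fam204a as well, and edgeR called none of these 10 genes.

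After busulfan some of these turned round. Zc3h6 rose to 18.9, 18.3 and 20.3 CPM with busulfan and AOS, against 5.30, 6.54 and 8.98 CPM with busulfan (log2 fold change 1.46 ± 0.18, edgeR adjusted p = 0.00596). Fam204a rose to 29.5, 29.9 and 28.2 CPM with busulfan and AOS, against 19.2, 19.7 and 17 CPM with busulfan (log2 fold change 0.65 ± 0.09, edgeR adjusted p = 0.00988). Their interactions were past the threshold, as was that of Rnf41 at -0.60 ± 0.10 (edgeR adjusted p = 0.0334), which held in 2 of the 13 refits that left out libraries. Interactions of Slx4, Pxk, Hmgn5, Osbpl1a, Apobec1 and Ttll4 did not pass (edgeR adjusted p = 0.185, 0.150, 0.0574, 0.0598, 0.394 and 0.273).

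**Figure D4:**
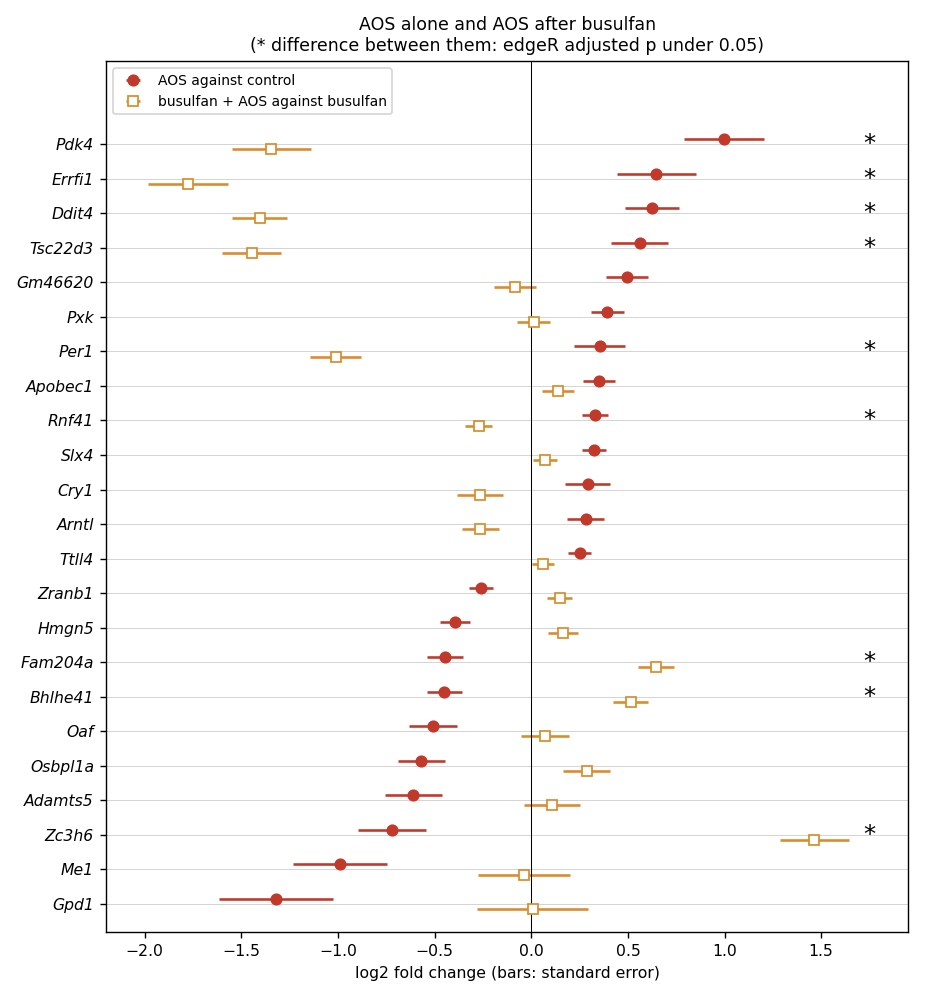
Log2 fold change (point) and standard error (bar) of 23 genes for AOS against control (filled circles) and for busulfan with AOS against busulfan (open squares). The 9 genes with an asterisk have an interaction past the threshold in edgeR, and in all 9 the points lie on opposite sides of 0. An asterisk marks a large difference between the points, which itself favours opposite sides. Tsc22d3, Errfi1, Per1, Arntl and Cry1 were added by hand to genes of smallest p.

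How many genes at an unadjusted p under 0.05 with AOS alone kept their sign after busulfan depended on the filter. In each set given here from the fit of all 12 libraries, fewer than 50% did. Single lists could run the same way in both pairs, as the interferon-stimulated genes did. Genes that rise and fall together are counted here as if separate. Of the 267 genes with higher values at an unadjusted p under 0.05, groups apart, at least 5 CPM and no place on a list of another tissue, 109 (40.8%) also had a positive log2 fold change after busulfan, against 50.7% of all genes. At an unadjusted p under 0.05 in the second pair, 21 of the 267 had the same sign and 71 the opposite sign. Of 245 genes with lower values chosen likewise, 91 (37.1%) had the same sign, 18 with an unadjusted p under 0.05, and 77 had the opposite sign at that level. Of all genes, 10.7% were higher and 10.5% lower at that level after busulfan, and 50.7% were positive. With no demand beyond the p, the shares of the same sign were 49.1% of 456 higher and 40.6% of 438 lower genes. With other-tissue lists left out but no demand on overlap or level, they were 45% of 420 higher and 39.7% of 431 lower genes. Over the 13 refits that left out libraries these last shares ran from 38% to 54.3% for higher genes. They were above 50% without control 2, AOS 2, AOS 3 or control 1 with AOS 2. For lower genes they ran from 34.9% to 47.3%.

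Some genes were nearly off in 1 group. Cacna1e, which encodes the CaV2.3 calcium channel and lies on chromosome 1 (chr1:154390806-154884785, GRCm38.p6), had 0.896, 0.860 and 1.01 CPM with AOS, against 77.3, 49.5 and 48.7 CPM in controls. Across the other groups it had 1.20, 3.57 and 38.3 CPM with busulfan and AOS, against 3.00, 29.4 and 29.4 CPM with busulfan, so that single libraries of both groups were low and others high. When only the 6 AOS and control libraries were fitted, Cacna1e was called (edgeR adjusted p = 0.00156), while the fit to all 12, in which the spread of the busulfan groups enters, gave 0.449. Trim25, a ubiquitin ligase that activates the RNA sensor RIG-I, had 69.1, 6.62 and 111 CPM with AOS, against 0.638, 0.955 and 1.28 CPM in controls. Its neighbour Scpep1, a serine carboxypeptidase 43960 bases away on chromosome 11 (chr11:88924020-88955442, GRCm38.p6), had 16.1, 1.12 and 18.6 CPM with AOS, against 0, 0.127 and 0 CPM in controls. The pair was low or high in the same libraries also after busulfan, with 71.5, 57.9 and 6.84 CPM of Trim25 and 17.2, 16.6 and 2.16 CPM of Scpep1 with busulfan and AOS, against 1.02, 58.2 and 5.31 CPM of Trim25 and 0.191, 12.8 and 1.08 CPM of Scpep1 with busulfan. DESeq2 called both in AOS against control (adjusted p = 0.0036 for Trim25 and 0.00414 for Scpep1).

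Phf11d, a PHD finger protein gene, had 35.1, 7.94 and 48.2 CPM with AOS, against 6.95, 8.47 and 8.88 CPM in controls. AOS 2 lay among the controls, and without AOS 2 edgeR called the gene (adjusted p = 0.000563), as it did without control 1 and AOS 2 (0.005). Fmod, the collagen-binding matrix protein fibromodulin, had 21.2, 14.4 and 16.2 CPM with AOS, against 12.5, 4.33 and 3.90 CPM in controls, and was called without control 1 and AOS 2 (edgeR adjusted p = 0.0497). After busulfan Fmod had 16.8, 18.2 and 18.1 CPM with AOS, against 9.13, 5.58 and 6.58 CPM without it (log2 fold change 1.32 ± 0.38, edgeR adjusted p = 0.0796). Its log2 fold changes in the 2 pairs were nearly equal, and neither passed.

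The widest gap between the list levels of AOS and control among all 43 lists was that of the pancreas. Acinar cells of the pancreas, which lies along the splenic vessels, make digestive enzymes, and of 35 acinar genes tested 34 had higher values with AOS at an unadjusted p under 0.05, against 3.02% of all genes, and 33 lay apart, against 5.63%. They took 0.328%, 4.89% and 0.580% of the counts with AOS, against 0.00378%, 0.0230% and 0.00502% in controls. The share was between 0.0198% and 0.268% with busulfan and AOS, against 0.00447% to 0.109% with busulfan. Amy2a5, pancreatic amylase, had 1026, 20553 and 2089 CPM with AOS, against 1.85, 52 and 3.26 CPM in controls, and how reads were divided among the related amylase genes is not stated. The lipase gene Pnlip had 228, 3417 and 426 CPM with AOS, against 0.255, 13.6 and 0.767 CPM in controls. Ins2, insulin, had 0.832, 51 and 5.60 CPM with AOS and no count in any control, where a count of 0 allows up to 0.199 CPM. Reg2, a secreted pancreatic lectin, was highest in the same library, with 2.88, 42.4 and 4.22 CPM with AOS, against 0, 0.382 and 0.128 CPM in controls. Tff2, a trefoil peptide of mucosa, had 3.71, 47.6 and 6.36 CPM with AOS, against 0, 0.255 and 0 CPM in controls. The amylase genes Amy2a2, Amy2a3 and Amy2a4 had identical values, 0.768, 13.5 and 1.32 CPM with AOS, against 0, 0.0637 and 0.0639 CPM in controls. Neither these nor Tff2 stood on a list of another tissue. Whether pancreas was attached to the tissue taken was not tested.

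Fat cell genes ran the other way, with 7 of 9 adipocyte genes lower with AOS at an unadjusted p under 0.05, against 2.9% of all genes, and apart, against 5.19%. Without control 1 the count at that p was 3 of 9, with 2 genes positive, and without control 1 and AOS 2 it was 1. Adipoq, the fat hormone adiponectin, had 0.832, 0.331 and 0.315 CPM with AOS, against 28.1, 1.85 and 0.959 CPM in controls. The list took 0.00759%, 0.0071% and 0.00774% of the counts with AOS, against 0.0336%, 0.0092% and 0.00783% in controls, so control 1 stood out. Genes on the lower side that fat also uses had their highest value in control 1. Gpd1, which makes the glycerol backbone of fat, had 4.74, 4.63 and 4.22 CPM with AOS, against 17.5, 8.66 and 7.80 CPM in controls. Me1, malic enzyme, had 8.96, 6.35 and 7.49 CPM with AOS, against 21.3, 12.9 and 11.2 CPM in controls. Car3, carbonic anhydrase 3, had 14.5, 11.1 and 5.54 CPM with AOS, against 276, 36.6 and 18.7 CPM in controls. Without control 1 their log2 fold changes were -0.86 for Gpd1, -0.67 for Me1 and -1.42 for Car3, each smaller in size than with all libraries (-1.32 ± 0.29, -0.99 ± 0.24 and -3.41 ± 1.14, SE). Kap, a gene named for the kidney, had 6.91, 5.69 and 7.74 CPM with AOS, against 41.7, 41.7 and 19 CPM in controls. It had 2.87, 54.4 and 4.50 CPM with busulfan and AOS, against 4.53, 49.5 and 41.3 CPM with busulfan. Single libraries of both these groups were thus low and others high. Hepatocyte genes, 16 tested, had 0 members at an unadjusted p under 0.05.

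**Figure D5:**
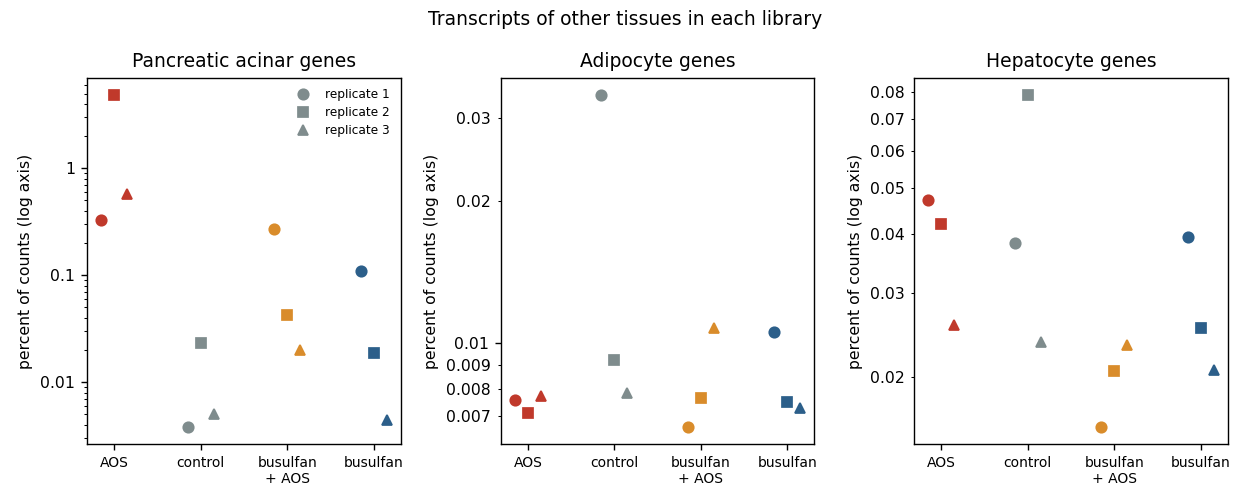
Percent of each library's counts in genes of pancreatic acinar cells, adipocytes and hepatocytes (log axes), by group, with the replicate number as the point's shape. AOS 2 has 4.89% acinar counts and each AOS library lies above each control; control 1 has 0.0336% adipocyte counts, above the other 11 libraries.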

How the data were processed

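RNA was sequenced from 12 mouse spleen libraries, 3 in each of 4 groups. The table deposited by the authors gives estimated counts per gene, of which 75.7% are whole numbers, and a normalized expression value per gene. The deposited normalized values were taken as FPKM: for 1227 genes with 2000 counts or more, the ratio of count to value tracked the library totals to 0.389%. The submitters' processing notes name the build mm10. No aligner or counter, and no rule for near-identical genes, is named there. RefSeq names, coordinates and promoters are of GRCm38.p6, the same assembly, and 18233 of 18362 Entrez numbers matched. Rows with no symbol held 2.74% to 3.15% of the counts.

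Counts were rounded, filtered with filterByExpr, scaled by TMM and fitted with edgeR 4.0.16 (R 4.3.3, quasi-likelihood, 1 mean per group, all 12 libraries, 8 residual degrees of freedom, biological coefficient of variation 18.9%). The p-values were adjusted by the Benjamini-Hochberg method over 15079 genes, and a call is an adjusted p under 0.05. CPM uses TMM-scaled totals. The contrasts are AOS over control, busulfan with AOS over busulfan, and the second minus the first (interaction). The fit of AOS over control was tested on simulated counts first. Alternatives were RLE and upper-quartile scaling, DESeq2 1.42.0, limma 3.58.1 (voom, and log2(FPKM + 0.1) and log2(FPKM + 1)), other filters, the 6 libraries alone, a replicate block, other-tissue or haemoglobin genes left out of library sizes, and libraries left out.

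The 3-count floor was 0.186 to 0.199 CPM in the 6 libraries and covers counting error only. Replicate numbers of AOS and control libraries were checked for pairing. By rule, genes named were, per direction, the 12 of smallest p and the 8 with the largest fold change among genes of at least 5 CPM with groups apart and on no other-tissue list, the 2 most abundant and the 2 of smallest p in each of 43 lists (699 genes), and genes called under an alternative with 5 or fewer calls. Genes beyond the rule, such as Errfi1, Per1, Bcl6, Ifit3, Isg15, Irf7 and H2-K1, were chosen after their values were seen. The comparison, the lists and the rule were chosen with earlier results of these data known, so nothing here is independent support for those.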

Additional observations from a re-analysis of the deposited data

Results flagged for a closer look

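The AOS effect after busulfan differed from the AOS effect alone for 73 genes with edgeR (interaction, adjusted p under 0.05), 36 with a higher and 37 with a lower log2 fold change after busulfan than alone. In 72 of the 73 the log2 fold changes had opposite signs in the 2 pairs. The 73 were chosen by that difference, which itself favours opposite signs, so this count is not a separate result. An unadjusted p under 0.05 in AOS against control was reached by 37 of them, and 70 were called in busulfan with AOS against busulfan.

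Among the genes named by the rule, the difference on the log2 scale (after busulfan minus alone) was -2.34 for Pdk4, -2.03 for Ddit4, -2.01 for Tsc22d3, -1.94 for Hspa8, -0.60 for Rnf41, 0.97 for Bhlhe41, 1.09 for Fam204a and 2.18 for Zc3h6. Over 13 refits that left out libraries, the call remained in 13 for Ddit4 and Tsc22d3, 12 for Pdk4, Fam204a and Zc3h6, 10 for Bhlhe41, 4 for Hspa8 and 2 for Rnf41. With 3 libraries per group, no test for a library far from the others of its group was made.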

How the results depend on the processing

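In AOS against control edgeR called 0 genes, with 894 at an unadjusted p under 0.05. DESeq2 called 70, limma on log2(FPKM + 0.1) without a filter 1 (Tmem213), the fit of the 6 libraries alone 1 (Cacna1e), the replicate block 1 (Ins2) and the fit without control 1 and AOS 2 2 (Phf11d and Fmod). Leaving out 1 library gave 0 to 2 calls, the 2 without AOS 2. The interaction had 73 calls, and 621 with DESeq2, 43 with no filter, 112 with a filter of 5 CPM, 33 with the replicate block, 7 without control 1 and AOS 2, and 8 (without busulfan with AOS 2) to 110 (without busulfan 3) when 1 library was left out. Other settings gave 53 to 101. The split of higher against lower calls in the interaction was 36 against 37, and 58 against 43 with upper-quartile scaling, 55 against 26 on log2(FPKM + 0.1), 48 against 23 on log2(FPKM + 1) and 38 against 16 on log2(FPKM + 0.1) without a filter. At an unadjusted p under 0.05, AOS against control had 456 higher and 438 lower genes, and on log2(FPKM + 0.1) 218 higher and 842 lower, where the median of all genes was -0.05. Upper-quartile scaling gave 365 higher and 548 lower. The cause was not tested.

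Samples with the same number correlated in their deviations from the group means with r = 0.27, 0.07 and 0.28 for numbers 1, 2 and 3 (across genes, which are not independent), each best with its own number. Nothing in the labels ties a number to a shared batch, so the block is an alternative only. Of the log2 fold changes of 185 named genes, 45 changed sign under some setting. A count of 0 leaves up to 0.199 CPM undetected.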

Other observations

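Heat shock chaperones, which refold damaged proteins and rise with temperature and stress, overlapped between AOS and control. In busulfan with AOS against busulfan, edgeR called 12 of 18, all lower, against 3.02% of all genes called in either direction. Of 18 tested, 12 had positive log2 fold changes with AOS alone, with a median of 0.20, and the one member with an unadjusted p under 0.05 was Hspa1b, which had 1.86, 6.42 and 4.28 CPM with AOS, against 12.9, 2.93 and 80.5 CPM in controls. Hspa8, the constitutive chaperone Hsc70, had 2419, 2799 and 3665 CPM with AOS, against 1945, 1907 and 2796 CPM in controls, which overlapped. After busulfan it fell to 1219, 1058 and 1058 CPM with AOS, against 4115, 3088 and 2375 CPM without it (log2 fold change -1.52 ± 0.22, edgeR adjusted p = 0.00988). The interaction was called for 5 of the 18 (Hspa8, Dnaja1, Hsph1, Hspb1 and Chordc1), against 0.484% of all genes.

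A few genes chosen after their values were seen had opposite signs in the 2 pairs. Cxcr4, the receptor that holds lymphocytes in tissue, had 178, 209 and 211 CPM with AOS, against 147, 126 and 174 CPM in controls, without overlap. After busulfan it fell to 83, 89 and 78.6 CPM with AOS, against 217, 180.3 and 167 CPM without it (log2 fold change -1.17 ± 0.13, edgeR adjusted p = 0.00525). Cirbp, an RNA-binding protein induced by mild cold, had 37.9, 27.1 and 22 CPM with AOS, against 36.6, 40.0 and 24.6 CPM in controls. After busulfan it rose to 66.5, 63.9 and 65.5 CPM with AOS, against 19, 23.7 and 23.3 CPM without it (log2 fold change 1.57 ± 0.21, edgeR adjusted p = 0.00824).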
